A study of Mus musculus with 18 samples.

Results

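The genes described here are 10 members of the mouse Serpina family, the clade A serpins: Serpina1a, Serpina1b, Serpina1c, Serpina1d, Serpina1e, Serpina3k, Serpina3n, Serpina6, Serpina7 and Serpina12. They were chosen by symbol, as members of the family with pericentral or periportal levels in earlier results of the same data, and each symbol was matched to 1 Ensembl gene among the 28030 genes of the count table. All 10 passed the filter on low counts, which left 12477 genes. The choice rested on the zones, so the differences between zones below are descriptions with no test, while the changes with fasting were tested.

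RNA-seq was run on liver cells of 12-week-old male wild-type C57BL/6J mice on normal chow, from which pericentral hepatocytes (around the central vein, PC) or periportal hepatocytes (around the portal vein, PP) had been obtained with digitonin, a detergent. Each of 3 states gave 3 libraries per zone, 18 libraries in 6 groups. All mice had been trained for 3 days with 16 h of overnight fasting and 8 h of daytime feeding, and on the day of the experiment had chow with drinking water that held 20% sucrose. Fed mice were killed at 13:00 after 4 h of feeding. Mice fasted for 8 h lost food and sucrose water at 13:00 and were killed at 21:00. Those fasted for 24 h were killed at 13:00 the next day. The 8 h groups thus differ from the fed and 24 h groups both in the hour of death and in the length of the fast, which cannot be told apart. Whether the libraries came from separate mice is not given in the sources used here, so the p-values measure only the spread between these libraries.

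Serpins are proteins that share a fold with an exposed reactive centre loop. In inhibitory serpins a protease cuts this loop and is trapped by the change of shape that follows. Serpina1 and Serpina3 genes encode relatives of human alpha-1-antitrypsin and alpha-1-antichymotrypsin, which hepatocytes secrete into plasma and of which some rise in the acute phase response to inflammation. Serpina6 (corticosteroid-binding globulin) and Serpina7 (thyroxine-binding globulin) do not inhibit proteases but carry glucocorticoids and thyroid hormone in blood. Serpina12 (vaspin) was first described as an adipose serpin and is also made in liver. Hepatocytes along the lobule differ in gene expression, a division of labour known as zonation.

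Total counts per library ranged from 18359911 to 26384358. Levels are given as CPM, library-size-scaled counts with edgeR's TMM factors. The summed level of 12 pericentral marker genes was 11209 to 20770.4 CPM in the PC libraries and 706 to 2518 CPM in the PP libraries, and that of 12 periportal markers was 8719 to 18245 CPM in PC and 17572 to 29852 CPM in PP. Glul, a gene of the hepatocytes next to the central vein, was at 111 CPM in 24 h PC library 2, against 552 to 1375 CPM in the other PC libraries, and for 10 of the 12 pericentral markers this library was the lowest of the 9 PC libraries. For 10 of the 12 periportal markers it was the highest of them, so its markers lean periportal among the PC libraries. Its pericentral marker sum, 12230 CPM, was still far above that of every PP library. Some of the 24 h PC results of Serpina6, Serpina7 and Serpina12 are also given without this library. Summed markers of other liver cell types were low in both zones and had higher medians in PP. The medians were 7.85 CPM in PC (5.15 to 14.1) and 15.7 in PP (5.81 to 41.3) for 8 sinusoidal endothelial genes, and 2.34 CPM in PC (0.605 to 6.08) and 8.96 in PP (1.09 to 22.6) for 11 Kupffer cell and leukocyte genes. Over the mean of states, 6 of 7 tested endothelial genes were called higher in PP (median log2 fold change 1.32) and 5 of 8 Kupffer and leukocyte genes (median 1.88), where 20.3% of all genes were called in either direction. For 9 stellate cell and fibroblast genes the medians were 2.62 CPM in PC (1.07 to 6.43) and 6.35 in PP (1.57 to 18.3), and for 6 cholangiocyte genes 27.96 (19.5 to 37.9) and 44.4 (32.9 to 56.9). The cholangiocyte sum was nearly all Krt7, Sox9 and Spp1, and Epcam was at 0 CPM in every library. The medians of these summed markers thus differ between the zones, as the levels of several members do. Their part in the results was not tested. Fewer cells of a type and less RNA per cell cannot be told apart in these bulk libraries. Lcn2, Saa1 and Hp, genes of the acute phase response, were high in the same 3 libraries: fed PC library 3, 8 h PC library 1 and 24 h PP library 3. Lcn2 stood at 156, 205 and 48.9 CPM there, and at no more than 28.6 CPM in the other 15. Results that change without these 3 libraries are given with and without them, an alternative added after the data were seen.

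Of the 10 genes, 9 lie within a Serpina cluster on chromosome 12 (GRCm38, mm10). The 25 cluster genes among the members and other listed Serpina genes span positions 103614786 to 104414329. Serpina7 lies alone on the X chromosome at 139079257 to 139085236, on the minus strand. Within the cluster, Serpina6 lies at 103646630 to 103657212, the 5 Serpina1 copies between 103728156 and 103958975, and Serpina12 at 104028769 to 104044443, all on the minus strand. Serpina3k at 104338486 to 104346144 and Serpina3n at 104406729 to 104414329 lie on the plus strand. The gene with the clearest pericentral level within the cluster, Serpina6, and the gene with the clearest periportal level, Serpina12, thus lie on either side of the Serpina1 copies.

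The 5 Serpina1 copies have coding sequences of 1239 bases that are 96.3% to 98.5% identical in pairs, so that which copy a read came from is often not decidable. In contrast, the coding sequences of the other pairs of members are 50.5% to 82.7% identical, the highest being Serpina3k and Serpina3n. The stretch of 60 coding bases in which the copies differ most, bases 1101 to 1160 of the coding sequence, is shown. It lies in 1 exon, toward the end of the protein, where serpins carry the reactive centre loop. Capitals mark the 18 positions (30%) at which the 5 copies are not all the same, against 86 positions (6.94%) over the whole coding sequence. All are given 5′ to 3′ on the minus strand of GRCm38 chromosome 12.
Serpina1a (chr12:103853757-103853816): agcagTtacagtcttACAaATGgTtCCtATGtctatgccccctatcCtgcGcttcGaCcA
Serpina1b (chr12:103728324-103728383): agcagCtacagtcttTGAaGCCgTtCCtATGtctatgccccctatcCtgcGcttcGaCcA
Serpina1c (chr12:103895094-103895153): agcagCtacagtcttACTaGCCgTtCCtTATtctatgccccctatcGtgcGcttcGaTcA
Serpina1d (chr12:103763762-103763821): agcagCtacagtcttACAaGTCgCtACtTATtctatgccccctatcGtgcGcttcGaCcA
Serpina1e (chr12:103947100-103947159): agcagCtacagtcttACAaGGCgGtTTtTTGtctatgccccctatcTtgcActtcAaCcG
In this stretch Serpina1c and Serpina1d differ at 5 positions, the fewest of any pair, and Serpina1e differs from each of the other copies at 10 to 12.

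The authors' counts came from kallisto, which assigns reads by the 31-base words (its default length) they share with transcripts. Of the 31-base words in its annotated transcripts, Serpina1c shares 85.8% with another gene, Serpina1a 65.2%, Serpina1d 64.7%, Serpina1e 54.2% and Serpina1b 44.7%. The levels of single Serpina1 copies are therefore estimates that share reads, and the sum of the 5 is the firmer value. The copies also share words with the pseudogene Gm8893, which was itself at 4.21 to 23.6 CPM. Serpina3k shares 24.2% of its words, mostly with Serpina3m (19.7%), and Serpina3n 21.6%, with no other gene holding more than 5.9%. Serpina6, Serpina7 and Serpina12 share none. Serpina3k lies within the annotated span of Serpina3m and Serpina1d within that of Serpina1b. An annotated antisense gene overlaps Serpina1c, and since the strand setting is not given, reads of the 2 strands cannot be told apart there. With both strands counted, the annotated gene B430119L08Rik shares words with all 5 copies. It holds 26.3% of the words of Serpina1c, 14.9% of Serpina1a, 7.18% of Serpina1d, 5.61% of Serpina1e and 3.56% of Serpina1b.

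The copies also share sequence just before their starts, which is shown as a description of how alike they are. Whether it bears on their levels was not tested. In the RefSeq windows of 250 bases before to 50 after the start (GRCm38.p6), the longest run identical in all 5 copies before the start is 55 bases.
Serpina1a to Serpina1e: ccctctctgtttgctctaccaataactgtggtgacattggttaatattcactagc
It begins 55 to 66 bases before the start in Serpina1a, Serpina1b, Serpina1c and Serpina1d and 117 bases before it in Serpina1e. In Serpina1a it lies at chr12:103863625-103863679, and in Serpina1e at chr12:103956960-103957014. Among 32851 windows of all genes, only these 5 hold it. RefSeq windows were matched for 8 of the 10 genes. Serpina3k and Serpina6 had none and were not searched. Exact letters of 6 motifs were searched on both strands: the full HNF1 site, the direct repeat bound by HNF4A, the palindrome bound by the glucocorticoid receptor, TTGCNNCAA (C/EBP), CTTTGATC (TCF/LEF) and the TATA box. The TATA box was in Serpina7's windows, as in 13.6% of all windows, and no other match was found in the 9 windows of these genes. The other 5 motifs are in 0.00913% to 2.08% of all windows, so finding no exact match in 9 windows was likely beforehand. Looser forms of these sites were not searched, and nothing is read from the absence of a match.

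Together the 10 genes made up 2.28% to 3.98% of all counts of a library. Per kilobase of transcript, the mean over the 6 groups was highest for Serpina1c at 5836 CPM per kb, followed by Serpina3k at 3452, Serpina1b at 3197, Serpina1a at 2836, Serpina1d at 2349 and Serpina1e at 2131 CPM per kb. Each gene overlapped over libraries with its neighbours in this order, Serpina1c ranging from 3912 to 8351 CPM per kb and Serpina3k from 2129.6 to 5472. Serpina1c lay above Serpina1d, whose highest library held 3509, without overlap. Serpina3n followed at 229 and Serpina6 at 122 CPM per kb, whose ranges also overlapped. Serpina12 at 4.68 and Serpina7 at 3.94 CPM per kb were the lowest, and the order of these 2 turned between zones.

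**Figure D1:**
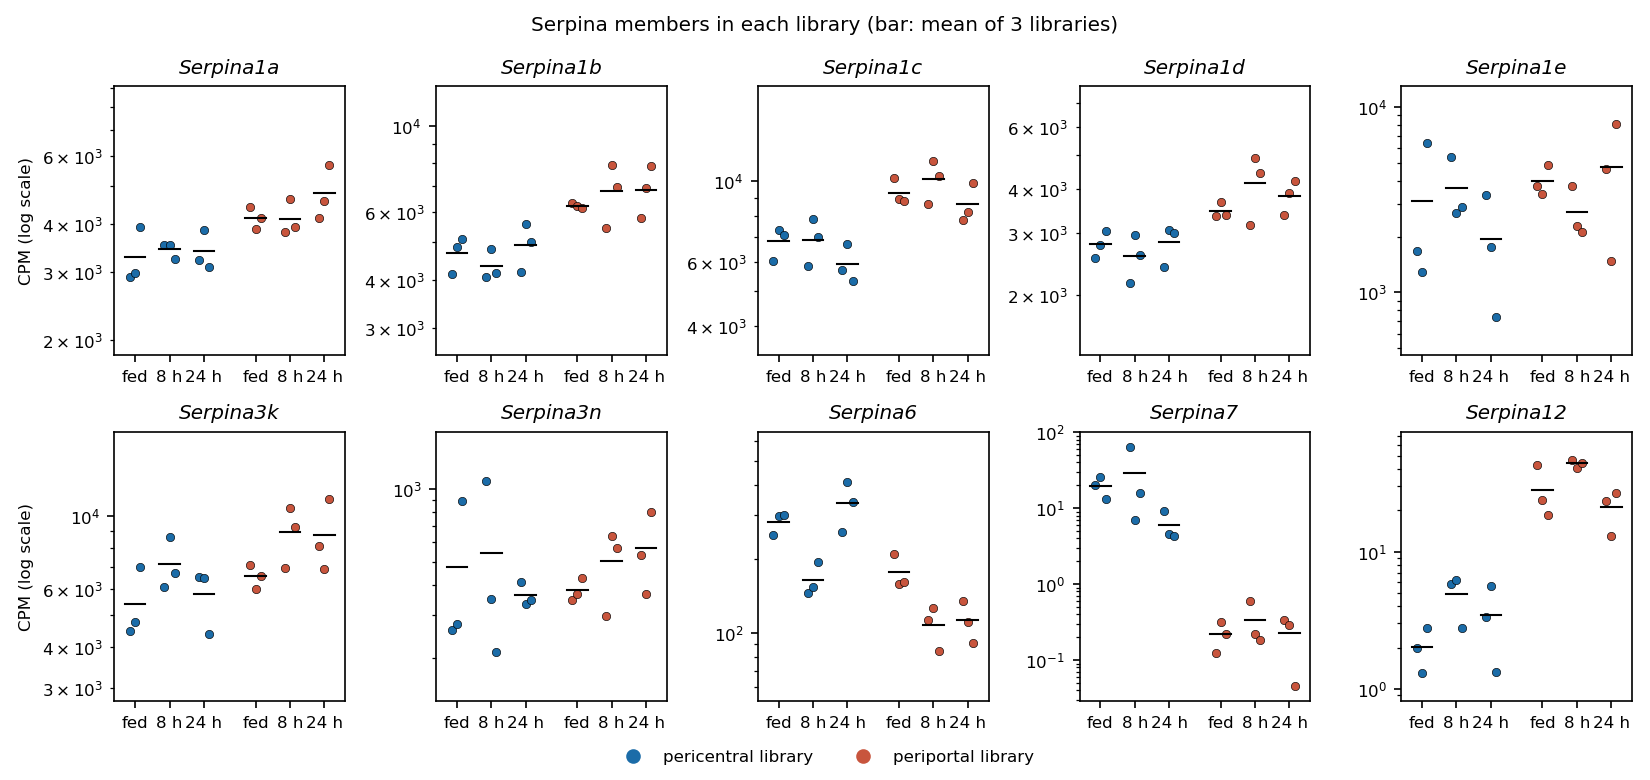
CPM of each of the 10 Serpina genes in the 18 libraries (log axis, own range in each panel). Points are libraries, the bar is the mean of 3, PC in blue and PP in red. Serpina7 lies below 1 CPM in all PP libraries, Serpina12 lies above 10 CPM in all PP libraries and below 7 CPM in all PC libraries, and Serpina1e varies more within groups than the other copies.

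In the zones, 2 carriers of hormones were the pericentral members and the other genes leaned periportal or showed no steady difference. Serpina6 and Serpina7 were higher in PC in each of the 3 states, Serpina12 was higher in PP in each, and Serpina1a, Serpina1b, Serpina1c, Serpina1d and Serpina3k had modestly higher means in PP in each. The 3 PC and 3 PP libraries did not overlap for 6 members in the fed state, where 28.3% of all genes tested did not overlap, for 7 at 8 h (23.9% of all genes) and for 8 at 24 h (22.1%). The choice of members fixes these counts in part, and nothing is read from them.

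Serpina7, the carrier of thyroxine, had the widest difference. In the fed PC libraries it was at 20.5, 25.4 and 13.0 CPM, in those of 8 h at 63.1, 7.07 and 15.9 CPM, and in those of 24 h at 9.10, 4.60 and 4.25 CPM. In the PP libraries the fed values were 0.124, 0.320 and 0.220 CPM, those of 8 h 0.606, 0.222 and 0.186 CPM, and those of 24 h 0.335, 0.291 and 0.0460 CPM. Every PC library was above every PP library, and 8 h PC library 1 stood far above the other PC libraries. The PP values rest on 1 to 15 counts per library, so counting error alone makes them imprecise. The log2 fold change of PP over PC was -6.43 (SE 0.91) fed, -6.35 (SE 0.87) at 8 h and -4.74 (SE 0.97) at 24 h. Without 8 h PC library 1 the value at 8 h was -5.04. The value at 24 h was -5.07 to -4.25 when each library was left out in turn. These are differences of Serpina7 levels on the log2 scale, and the fitted values of so low a gene depend in part on the model's prior. The PP libraries' pericentral marker sum, 706 to 2518 CPM, shows the reads of pericentral genes they held.

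Serpina6, the carrier of glucocorticoids, was higher in PC by a smaller factor at levels that leave little counting error. It was at 249, 299 and 302 CPM in fed PC and 209, 158 and 161 CPM in fed PP. At 8 h it was at 145, 154 and 194 CPM in PC and 113, 126 and 84.2 CPM in PP. At 24 h the PC libraries held 257, 409.8 and 341 CPM and the PP libraries 135, 111 and 91.0 CPM. The zones did not overlap in any state, and they lay farthest apart at 24 h. PP over PC, the log2 fold change was -0.68 (SE 0.19) fed, -0.61 (SE 0.19) at 8 h and -1.58 (SE 0.20) at 24 h (-1.42 without 24 h PC library 2).

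Serpina12 was the clearest periportal member. It was at 1.97, 1.30 and 2.76 CPM in fed PC and 42.5, 23.7 and 18.6 CPM in fed PP. At 8 h it was at 5.82, 6.19 and 2.78 CPM in PC and 46.6, 40.8 and 44.3 CPM in PP, and at 24 h at 3.36, 5.63 and 1.33 CPM in PC and 23.6, 13.0 and 26.9 CPM in PP. The lowest PP library was above the highest PC library in the whole set. PP over PC, the log2 fold change was 3.81 (SE 0.49) fed, 3.16 (SE 0.46) at 8 h and 2.58 (SE 0.47) at 24 h (3.13 without 24 h PC library 2).

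The sum of the 5 Serpina1 copies, genes for alpha-1-antitrypsin, was 20690.0 ± 4329 CPM (SD, n = 3) in fed PC and 27094 ± 970 in fed PP, 20899 ± 958 and 27865 ± 3160 at 8 h, and 18973 ± 1888 and 28858 ± 5983 at 24 h. PP over PC, its log2 fold change was 0.39 (SE 0.17) fed, 0.42 (SE 0.17) at 8 h and 0.61 (SE 0.17) at 24 h. Among the copies, Serpina1c was the most abundant, with 6029.7, 7314 and 7124 CPM in fed PC and 10158, 8889.9 and 8788 CPM in fed PP. Its zones did not overlap in any state, with log2 fold changes of 0.44 (SE 0.15), 0.55 (SE 0.15) and 0.55 (SE 0.15). Serpina1b stood at 4128, 4864 and 5097 CPM in fed PC and 6303, 6218 and 6145 CPM in fed PP, also without overlap in any state. Its log2 fold changes were 0.41, 0.64 and 0.48 (SE 0.16 for each). Serpina1d differed by 0.31, 0.69 and 0.44 (SE 0.17 for each), without overlap in any state. Serpina1a differed by 0.34, 0.27 and 0.50 (SE 0.15 for each) and overlapped between zones in the fed state, where fed PC library 3 held 3922 CPM and the lowest PP library 3867.

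Serpina1e did not follow its near-identical neighbours. It was at 1675, 1286 and 6371 CPM in fed PC and 3725, 3396 and 4848 CPM in fed PP. At 8 h it was at 5392, 2670.1 and 2892 CPM in PC and 3733, 2272 and 2120.5 CPM in PP, and at 24 h at 3332, 1758 and 733 CPM in PC and 4616, 1485 and 8105 CPM in PP. Libraries of 1 group thus lay up to several-fold apart, the zones overlapped in every state, and the highest library was 11.1 times the lowest. The pooled within-group SD of log2 CPM was 0.90 for Serpina1e, above that of 95.3% of all genes tested, and 0.17 to 0.20 for the other 4 copies (median of all genes 0.22). PP over PC, its log2 fold change was 0.36 (SE 0.69) fed, -0.43 (SE 0.69) at 8 h and 1.29 (SE 0.70) at 24 h. The fed value was 1.43 without fed PC library 3.

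The share of Serpina1e in the summed Serpina1 CPM ran from 4.27% in 24 h PC library 3 to 25.7% in 8 h PC library 1. Serpina1a ran from 14.2% to 18.4% and Serpina1c from 27.6% to 38.1%. Across the 18 libraries Pearson's r of log2 CPM was 0.75 to 0.96 between pairs of Serpina1a, Serpina1b, Serpina1c and Serpina1d, and 0.028 to 0.52 between these and Serpina1e. The libraries share groups and the copies share reads, so these values are descriptions.

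**Figure D2:**
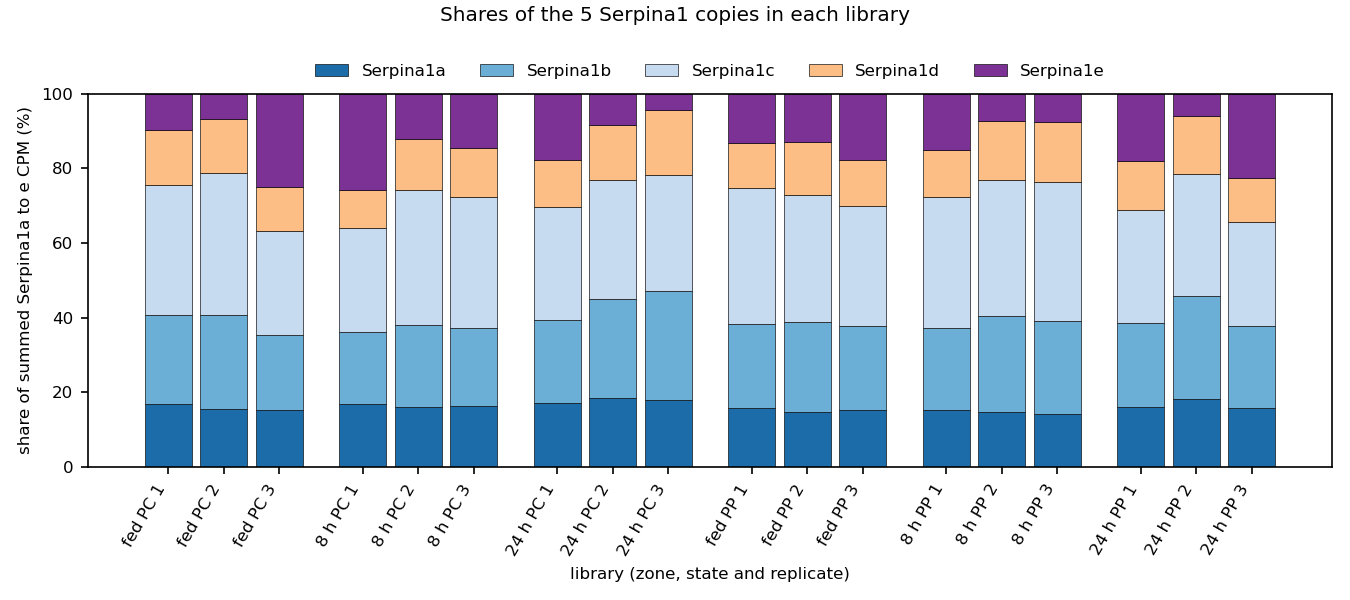
Share (%) of each of the 5 copies in the summed Serpina1a to Serpina1e CPM of each library, as stacked bars. The Serpina1e share moves between 4.27% and 25.7% within and between groups, and the Serpina1a share stays between 14.2% and 18.4%.

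The Serpina3 genes encode relatives of alpha-1-antichymotrypsin. Serpina3k was at 4471, 4759.7 and 6977 CPM in fed PC and 7122, 6009 and 6572 CPM in fed PP, at 6094, 8639.9 and 6698 CPM in PC and 6928, 10581 and 9261 CPM in PP at 8 h, and at 6549, 6498 and 4381 CPM in PC and 8092, 6914 and 11256 CPM in PP at 24 h. The zones overlapped fed and at 8 h and not at 24 h. PP over PC, its log2 fold change was 0.28, 0.32 and 0.59 (SE 0.23 for each). The sum with Serpina3m, with which it shares most words, differed by 0.26, 0.32 and 0.58 (SE 0.22 for each).

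Serpina3n had a zone difference whose direction depended on 3 libraries. It was at 261, 276 and 886 CPM in fed PC and 346, 368 and 428 CPM in fed PP. At 8 h it was at 1069.7, 349 and 213 CPM in PC and 299.7, 637 and 570.1 CPM in PP, and at 24 h at 411, 336 and 346 CPM in PC and 535, 367 and 804 CPM in PP. The highest PC library of the fed and of the 8 h state stood far above the other 2 of its group. PP over PC, the log2 fold change was -0.32 (SE 0.57) fed, -0.12 (SE 0.57) at 8 h and 0.64 (SE 0.57) at 24 h. Without the 3 libraries with the highest Lcn2 the estimates were 0.50, 0.84 and 0.31, so the direction fed and at 8 h turned. These 3 libraries also held the most Serpina3n, and fed PC library 3 and 8 h PC library 1 are among them. Leaving them out therefore raises PP over PC in those states by the choice itself, and no zone direction is read from these estimates.

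**Figure D3:**
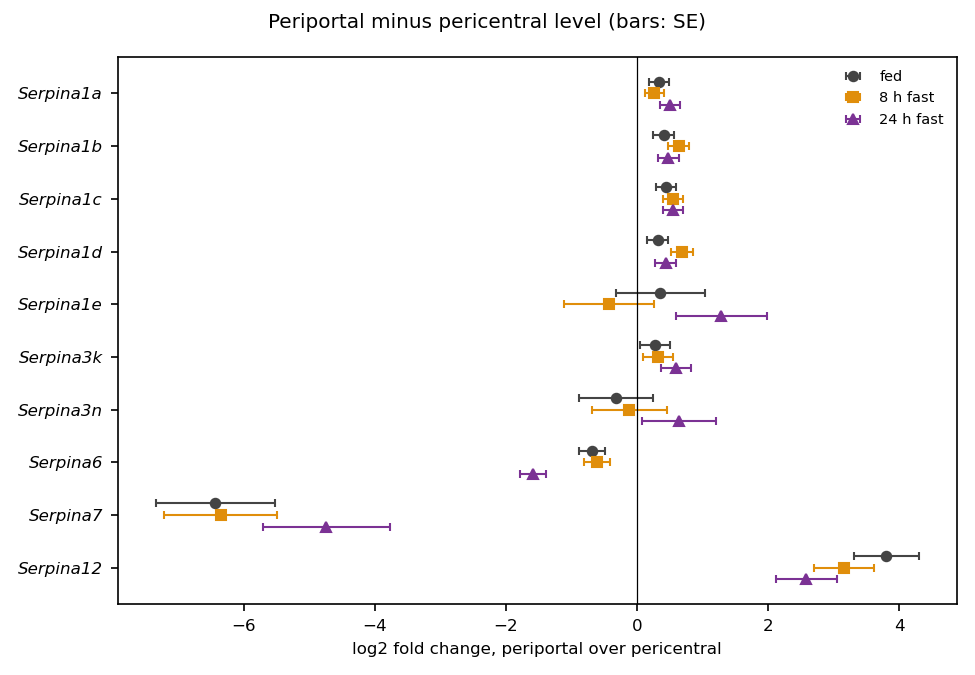
Log2 fold change of PP over PC for each gene in the fed, 8 h and 24 h states, with SE bars from edgeR. Serpina7 and Serpina6 lie left of 0 and Serpina12 right of it in all 3 states. The Serpina1a to Serpina1d and Serpina3k points lie between 0.27 and 0.69, and Serpina1e and Serpina3n have wide bars that cross 0 in the fed and 8 h states.

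Serpina3n and Serpina1e were high where acute phase genes were high. The 3 libraries with the highest Lcn2, the gene for lipocalin 2, held 804 to 1069.7 CPM of Serpina3n, against 213 to 637 CPM in the other 15. Serpina1e was at 5392 to 8105 CPM in these 3 and at 733 to 4848 CPM in the other 15. Saa1, the gene for serum amyloid A1, was at 1611 to 3234 CPM in these 3 and at 11.8 to 272 CPM in the others. Hp, the gene for haptoglobin, was at 5772 to 6892 CPM against 1846 to 3652 CPM. For each of these 4 genes the 3 libraries did not overlap with the other 15. The 3 libraries come from 3 different groups. After the group means were removed, r over the 18 libraries was 0.98 between Serpina3n and Lcn2, 0.95 between Serpina3n and Hp and 0.92 between Serpina3n and Saa1. The same r for Serpina1e was 0.69 with Lcn2, 0.72 with Hp and 0.79 with Saa1. These 3 libraries weigh heavily in each value. The members' values are given here beside these genes, and their cause was not tested.

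**Figure D4:**
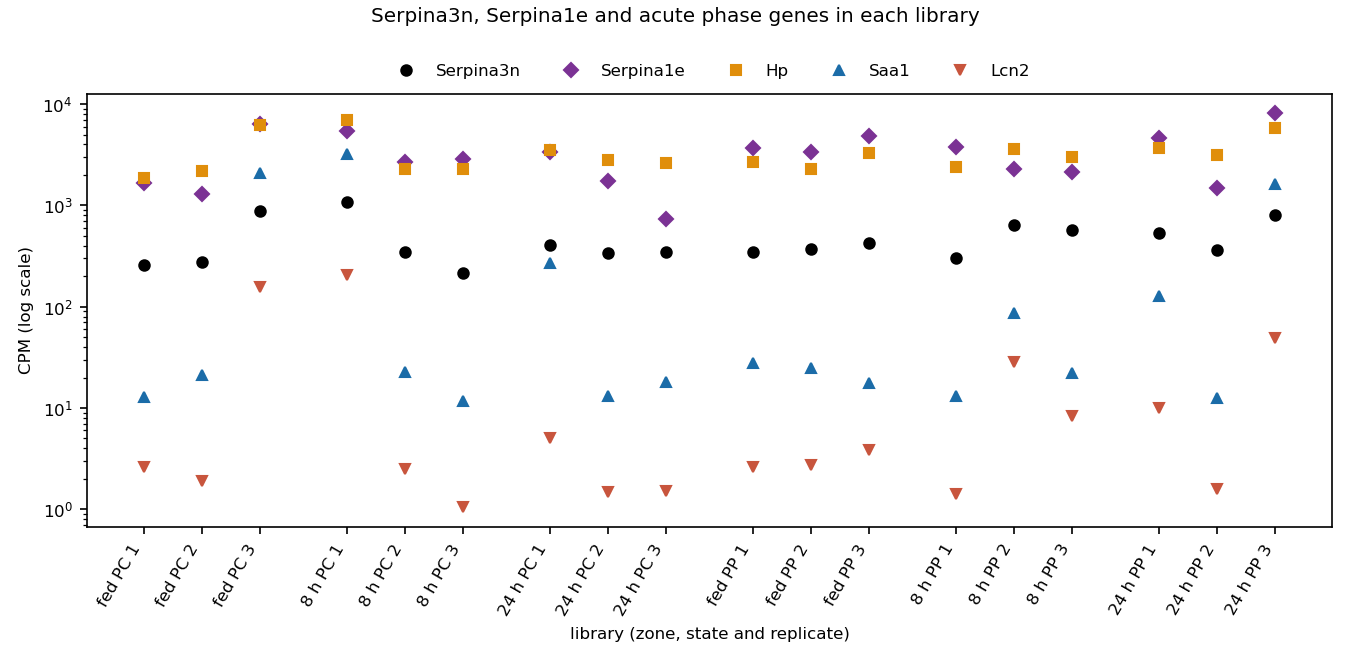
CPM (log axis) of Serpina3n, Serpina1e, Hp, Saa1 and Lcn2 in each of the 18 libraries, ordered by group. Fed PC 3, 8 h PC 1 and 24 h PP 3 hold the 3 highest values of each of the 5 genes, with Lcn2 at 156, 205 and 48.9 CPM.

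The changes with fasting were tested across all 12477 genes with edgeR's quasi-likelihood test and Benjamini-Hochberg adjustment, calling a gene at an adjusted p under 0.05. Serpina6 was the member whose level changed most clearly: it fell by 8 h in both zones and rose from 8 h to 24 h in PC, and at 24 h it was lower than fed in PP. Serpina7 fell between 8 h and 24 h in PC, a call lost when any of 3 libraries was left out. Serpina12 rose at 8 h over the mean of both zones, a call lost when any of 11 libraries was left out. No Serpina1 copy and neither Serpina3 gene passed the test in any comparison between states. At 8 h against fed, 1 of 10 members passed in PC, where 13.8% of all genes did, and 1 of 10 in PP, against 14.4%. At 24 h against fed, 0 of 10 passed in PC (21.8% of all genes) and 1 of 10 in PP (19.6%). The 0 in PC was also the count by DESeq2 and by limma-voom, with 1 member at an unadjusted p under 0.05. From 8 h to 24 h, 2 of 10 passed in PC (9.71% of all genes) and 0 of 10 in PP (7.46%). For that 0, DESeq2 gave 0, limma-voom gave 1 lower, and 1 member had an unadjusted p under 0.05 with edgeR. Of the genes that fell, the background was 6.57%, 11.1% and 4.51% of all genes in PC and 6.85%, 10% and 4.24% in PP, in the same order of comparisons. With 10 members these counts are close to the background. Over the mean of zones, 2 of 10 passed at 8 h against fed (26.4% of all genes, 13.8% higher) and 0 of 10 at 24 h against fed (34.5%). From 8 h to 24 h 1 of 10 passed (20.2%). This was Serpina6, which rose by 0.55 on the log2 scale (SE 0.14, edgeR adjusted p = 0.00979). In that comparison 1249 of all 12477 genes were called higher, and 10.2% lower. For the 0 at 24 h, DESeq2 and limma-voom also gave 0, and no member had an unadjusted p under 0.05. The comparisons against fed share the fed libraries.

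Serpina6 fell from 283 ± 29.8 CPM (SD, n = 3) in fed PC to 164 ± 25.95 at 8 h, without overlap, a log2 fold change of -0.79 (SE 0.19, edgeR adjusted p = 0.0112). In PP it fell from 176 ± 28.7 to 108 ± 21.1 CPM, without overlap (log2 fold change -0.71, SE 0.19, edgeR adjusted p = 0.0204). Averaged over zones the change was -0.75 (SE 0.14, edgeR adjusted p = 0.000627). Its adjusted p was 0.000382 to 0.00239 when each library was left out in turn. Within single zones the call was less firm. The PC call was lost without 8 h PC library 1 (-0.70, edgeR adjusted p = 0.0519) or library 2 (-0.73, edgeR adjusted p = 0.0511), and the PP call without fed PP library 1 (-0.57, edgeR adjusted p = 0.105) or 8 h PP library 3 (-0.57, edgeR adjusted p = 0.0909).

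From 8 h to 24 h Serpina6 rose in PC, to 336 ± 76.4 CPM, without overlap. Its log2 fold change of 1.03 (SE 0.19) had an edgeR adjusted p of 0.00383, and the call was kept without each library in turn (edgeR adjusted p 0.0020 to 0.0269). Library 2 of 24 h PC, which leans periportal in its markers among the PC libraries, held the most Serpina6 of that group. Without this library the change was 0.85 (edgeR adjusted p = 0.0212). Against fed, the 24 h PC level differed by 0.25 (SE 0.19, edgeR adjusted p = 0.399) and overlapped with it. This difference was above 0 in all 29 other settings, at 0.07 to 0.40. In PP the 24 h level was 112 ± 22.1 CPM, 0.06 (SE 0.19) from the 8 h level on the log2 scale (edgeR adjusted p = 0.90) and lower than fed by a log2 fold change of -0.65 (SE 0.19, edgeR adjusted p = 0.0261). That last call was lost without fed PP library 1 (-0.51, edgeR adjusted p = 0.127), without 24 h PP library 2 (-0.64, edgeR adjusted p = 0.0738), and without 24 h PP library 3 (-0.52, edgeR adjusted p = 0.119). The difference between the 2 zones' changes from fed to 24 h was -0.90 (SE 0.27, unadjusted p = 0.00444), with an edgeR adjusted p of 0.40. A different course of Serpina6 in the zones therefore did not pass the test, in a comparison that 2 of all genes (0.016%) passed. For the change from fed to 8 h, none of the members and 0% of all genes passed with edgeR; DESeq2 and limma-voom also called no member, and no member had an unadjusted p under 0.05.

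The change of Serpina7 rested on few libraries. In PC its mean was 19.6 ± 6.22 CPM fed, 28.7 ± 30.1 at 8 h and 5.98 ± 2.71 at 24 h (SD, n = 3). The 3 libraries of 24 h were all below the 3 of fed, and 8 h PC library 1 stood at 63.1 CPM, with the next of its group at 15.9 CPM. From 8 h to 24 h it fell by 2.26 on the log2 scale (SE 0.63, edgeR adjusted p = 0.0374). Without 8 h PC library 1 it was -0.95 (edgeR adjusted p = 0.239), and the call was also lost without 24 h PC library 2 (-2.11, edgeR adjusted p = 0.122) or library 3 (-2.09, edgeR adjusted p = 0.139). From fed to 24 h it was -1.71 (SE 0.62, edgeR adjusted p = 0.0652), which missed the threshold. It passed with only the 2 groups fitted (-1.72, edgeR adjusted p = 0.0203) and without the 3 libraries with the highest Lcn2 (-1.93, edgeR adjusted p = 0.00496), of which 2 are PC libraries. It also passed without 8 h PC library 1 (-1.72, edgeR adjusted p = 0.00654) or library 2 (-1.71, edgeR adjusted p = 0.0203), which are in neither group and enter only the shared spread. Without 24 h PC library 2 it was -1.55 (edgeR adjusted p = 0.174). In PP no comparison of Serpina7 passed, at 1 to 15 counts per library.

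Serpina12 averaged 2.01 ± 0.73 CPM in fed PC, 4.93 ± 1.87 at 8 h and 3.44 ± 2.15 at 24 h, and 28.3 ± 12.6, 43.9 ± 2.93 and 21.1 ± 7.26 CPM in PP (SD, n = 3). Both zones had their highest mean at 8 h. Averaged over zones, it rose by 0.96 on the log2 scale from fed to 8 h (SE 0.33, edgeR adjusted p = 0.0421). The call was lost when any of 11 of the 18 libraries was left out, with values of 0.85 to 1.17 and edgeR adjusted p of 0.0167 to 0.0996 over all 18. It was also lost without the 3 libraries with the highest Lcn2 (1.03, edgeR adjusted p = 0.0908). Within single zones it was 1.28 (SE 0.50, edgeR adjusted p = 0.113) in PC and 0.64 (SE 0.41, edgeR adjusted p = 0.352) in PP. From 8 h to 24 h in PP the libraries did not overlap, and the log2 fold change of -1.06 (SE 0.42) had an edgeR adjusted p of 0.148. Over the mean of zones, the change from 8 h to 24 h was -0.77 (SE 0.32, edgeR adjusted p = 0.106) and did not pass. Of the 18 libraries left out in turn, only 24 h PC library 2 changed this (-1.05 without it, edgeR adjusted p = 0.0389).

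The Serpina1 sum differed by at most 0.14 on the log2 scale in every comparison between states within a zone. From fed to 24 h it was -0.13 (SE 0.17, edgeR adjusted p = 0.648) in PC and 0.09 (SE 0.17, edgeR adjusted p = 0.760) in PP. Of the single copies, the log2 fold changes of Serpina1a, Serpina1b, Serpina1c and Serpina1d against fed lay between -0.21 and 0.26. Those of Serpina1e lay between -0.68 and 0.25 with an SE of 0.68 to 0.69, so a change of that gene of about that size would not have been seen here.

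Serpina3k had its higher means in fasting in both zones. Averaged over zones, it differed from fed by 0.42 (SE 0.16, edgeR adjusted p = 0.0634) at 8 h and by 0.26 (SE 0.16, edgeR adjusted p = 0.235) at 24 h. The 8 h value passed with DESeq2 (0.42, DESeq2 adjusted p = 0.0308) and without the 3 libraries with the highest Lcn2 (0.59, edgeR adjusted p = 0.0109). Fed PC library 3, 1 of those 3, held the most Serpina3k of its group, so leaving it out raises this value by the choice itself. With each library left out in turn the value was 0.35 to 0.54 (edgeR adjusted p 0.0231 to 0.154), and 4 of the 18 changed the call. Serpina3n differed from fed by 0.30 (SE 0.40, edgeR adjusted p = 0.649) at 8 h and 0.10 (SE 0.40, edgeR adjusted p = 0.881) at 24 h, each within its spread over libraries.

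**Figure D5:**
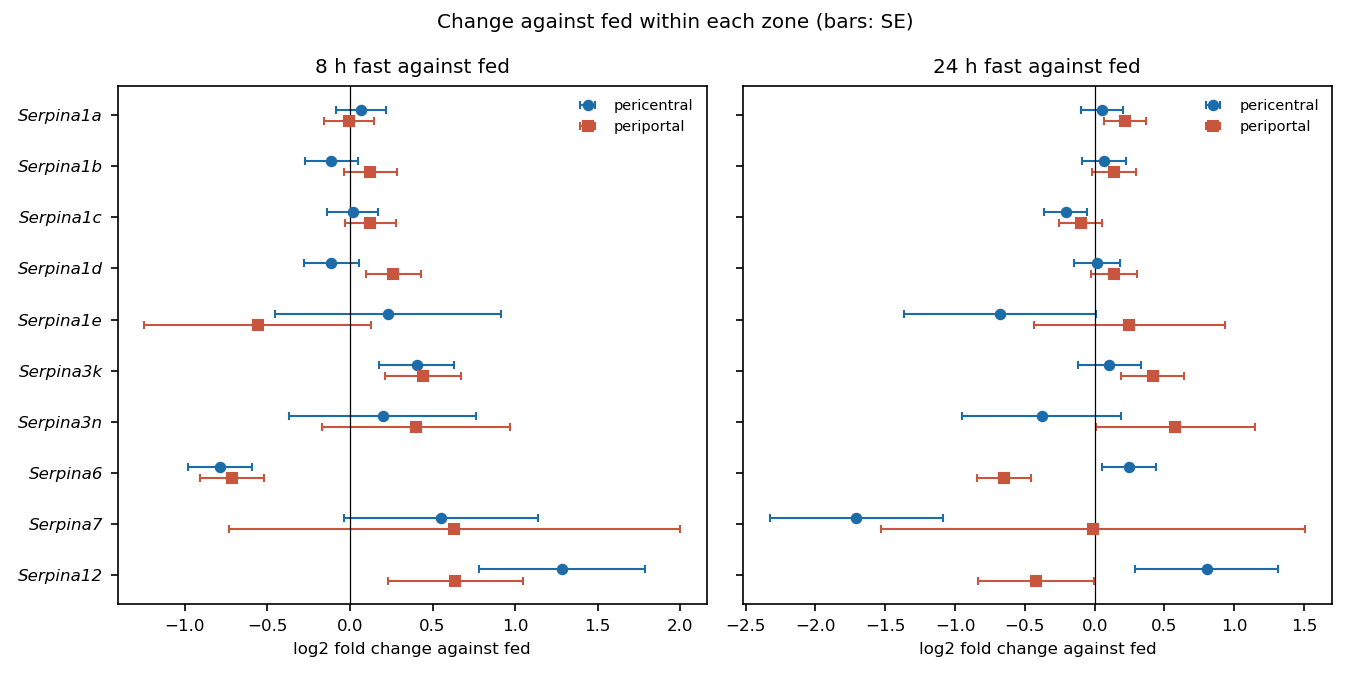
Log2 fold change against fed of each gene in PC (blue) and PP (red), at 8 h (left) and 24 h (right), with SE bars from edgeR. Serpina6 lies at -0.79 and -0.71 at 8 h, and at 0.25 in PC and -0.65 in PP at 24 h. Most other bars reach or come near 0.

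The genes whose log2 CPM followed each member most closely over the 18 libraries, among 6615 genes with a mean of at least 10 CPM, are given as a description. For Serpina1b they were Gc (r = 0.95) and Alb (r = 0.95), the genes of vitamin D-binding protein and albumin. They were Apoc3 (r = 0.97) and Cfhr2 (r = 0.95) for Serpina1d, Spp1 (r = 0.94) and Afm (r = 0.92) for Serpina1c, and Cfi (r = 0.91) and Plce1 (r = 0.90) for Serpina1a. Serpina1e had lower values, with C8a (r = 0.79) and Kyat1 (r = 0.77). Serpina3k was followed by C9 (r = 0.86) and Mup1 (r = 0.86), and Serpina3n by Lcn2 (r = 0.95) and Hp (r = 0.93). Serpina6 was followed by Coasy (r = 0.91) and Prdx6 (r = 0.90), and Serpina12 by Slc3a1 (r = 0.95) and Itih5 (r = 0.94). Serpina7, with a mean below 10 CPM, was not matched. The libraries share zones and states, so each r holds the differences between groups, and the genes were picked as the highest of many.

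Of the other 17 Serpina genes listed, 8 passed the filter on low counts. At 24 h against fed, averaged over zones, 1 rose and 3 fell, 4 of 8 (50%) against 34.5% of all genes called, with a median log2 fold change of -0.12 for the 8 (0.01 for all genes). Serpina3c rose by 0.72 (SE 0.21, edgeR adjusted p = 0.0152). Serpina4-ps1, a pseudogene, fell by 3.05 on the log2 scale (SE 0.74, edgeR adjusted p = 0.00577), from 74.5 CPM in fed PC and 94.8 in fed PP to 12.0 and 8.55 CPM at 24 h. Serpina9 (-3.14, SE 0.54, edgeR adjusted p = 0.000264) and Serpina5 (-2.32, SE 0.75, edgeR adjusted p = 0.0242) fell from means below 1 CPM in the fed state. The Serpina5 call was lost without the 3 libraries with the highest Lcn2 (-2.20, edgeR adjusted p = 0.0776). Serpina10, the inhibitor of factor X with protein Z, Serpina11, Serpina3m and Agt, the angiotensinogen gene, did not pass. Among 14 other serpin genes tested, outside clade A, 2 rose and 1 fell at 24 h over the mean of zones, 21.4% against 34.5% of all genes. Serpinb6b rose by 2.04 (SE 0.35, edgeR adjusted p = 0.000298).

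The genes that carry or answer to the hormones bound by Serpina6 and Serpina7 were taken from a list of 19, of which 18 were tested. Over the mean of zones 3 rose and 4 fell at 24 h against fed, 38.9% against 34.5% of all genes, and 3 rose and 4 fell at 8 h, against 26.4% of all genes. Thrsp, a target of thyroid hormone and of carbohydrate feeding, fell by 4.06 on the log2 scale at 24 h (SE 0.47, edgeR adjusted p = 2.2e-05). Of the glucocorticoid targets, Fkbp5 rose by 2.10 (SE 0.34, edgeR adjusted p = 0.000307), and Sgk1 by 1.64 (SE 0.27, edgeR adjusted p = 0.000279). Of the carriers on that list, Ttr, the gene for transthyretin, which also carries thyroxine, differed by -0.06 (SE 0.11, edgeR adjusted p = 0.712) and Alb by 0.36 (SE 0.14, edgeR adjusted p = 0.0661).

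Among 26 acute phase genes, all tested, 6 rose and 0 fell at 8 h over the mean of zones (23.1%, against 26.4% of all genes) with a median log2 fold change of 0.54 (0.01 for all genes). At 24 h 3 rose and 1 fell (15.4%, against 34.5%), with a median of 0.19. Without the 3 libraries with the highest Lcn2, 6 rose and 1 fell at 8 h with a median of 0.29, and 8 rose and 1 fell at 24 h with a median of 0.36 (26.9% and 34.6% called, against 22.2% and 28.7% of all genes). Il6ra, a subunit of the interleukin 6 receptor, rose by 1.43 at 24 h (SE 0.21, edgeR adjusted p = 8.6e-05), Il1rn by 1.29 (SE 0.37, edgeR adjusted p = 0.0114), and Steap4 fell by 1.14 on the log2 scale (SE 0.26, edgeR adjusted p = 0.00327). Lcn2, with which Serpina3n moved between libraries, differed by -0.80 (SE 1.45, edgeR adjusted p = 0.724) at 24 h, and by 0.57 (SE 0.77, edgeR adjusted p = 0.643) without these libraries. Of 17 liver transcription factors, 7 rose and 7 fell at 24 h over the mean of zones, 82.4% against 34.5% of all genes. The widest changes were those of Cebpd (2.55, SE 0.27, edgeR adjusted p = 3.33e-06), Onecut1 (-1.999, SE 0.55, edgeR adjusted p = 0.0123) and Foxa2 (-1.12, SE 0.22, edgeR adjusted p = 0.000963). Of 16 tested genes of proteases that serpins can act on, 2 rose and 0 fell, 12.5% against 34.5% of all genes. These were F12, the gene of coagulation factor XII (0.29, SE 0.08, edgeR adjusted p = 0.0119), and Hpn, the gene of hepsin (0.44, SE 0.08, edgeR adjusted p = 0.000243).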

How the data were processed

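Estimated counts per gene were deposited by the authors in 1 table of 28030 genes and 18 libraries. Per the submitters' processing notes they come from kallisto 0.46.0 with mm10. The annotation, strand setting and summing to genes are not given in the sources used here. Per the labels, libraries were made from total RNA with a NEBNext Ultra kit. Of the values, 67.5% to 70.5% per library were whole (tolerance 1e-09). They were rounded before testing.

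The fit was edgeR 4.0.16 (R 4.3.3), quasi-likelihood with robust dispersion and TMM factors, on all 18 libraries and 6 groups, after edgeR's filter on low counts (12477 genes, Benjamini-Hochberg over all of them). SE is the log2 fold change divided by the root of F. Log2 CPM used a prior count of 2. The script was tested on simulated data. DESeq2 1.42.0 and limma 3.58.1 (voom) were alternatives, as were other scalings, filters, a replicate block, summed copies and leaving out each library. No 2 libraries looked like duplicates. Shared 31-base words were counted in GENCODE M21 transcripts of GRCm38. Transcript lengths are those of the APPRIS principal transcript.

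The members and gene lists were chosen with earlier results of these data known. Named beyond the members were, per list, up to 3 called genes with the largest change at 24 h over the mean of zones, any tested Serpina gene, zone markers where a library stood apart, and the 2 closest genes per member with a mean of at least 10 CPM. Genes named for other reasons (Ttr, Alb, Saa1, Lcn2 and Hp among them) were chosen after their values were seen.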

Additional observations from a re-analysis of the deposited data

How the results depend on the processing

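The counts of members that passed the test moved with the settings because 1 or 2 genes decide them. For 24 h against fed in PC, members lower were 1 in place of 0 (Serpina7) when only the groups compared were fitted, with the replicate block and without the 3 libraries with the highest Lcn2. For 24 h against 8 h in PC, members lower were 0 in place of 1 with no filter on low counts, with only the groups compared, with limma-voom and without those 3 libraries. For 24 h against 8 h in PP, limma-voom gave 1 lower in place of 0 (Serpina12). For 8 h against fed over the mean of zones, members higher were 0 in place of 1 with no filter and 2 with DESeq2 (Serpina3k added), and without the 3 libraries with the highest Lcn2 the 1 was Serpina3k in place of Serpina12. Without those 3 libraries, members lower were 0 in place of 1 for 8 h against fed in PC and for 24 h against fed in PP (Serpina6, -0.66 and -0.52). Leaving out each library in turn, the count of members lower ranged from 0 to 1 for 8 h and 24 h against fed and 24 h against 8 h in PC, for 8 h and 24 h against fed in PP and for 24 h against 8 h over the mean of zones, and the count of members higher at 8 h over the mean of zones from 0 to 2. Summed copies give no count of members. Of 96 member changes with an unadjusted p of at least 0.05 and no call in any setting, 48 changed sign in at least 1 setting, none of them above 0.96 in size.

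Replicate numbers of different groups did not pair the libraries in general: the 45 correlations of same-numbered deviations ran from -0.12 to 0.21, and in 1 of 15 pairs of groups (24 h PC and 24 h PP, 0.12 to 0.17) all exceeded 0.1. With the replicate block, Serpina6 changed from fed to 8 h by -0.75 over the mean of zones (edgeR adjusted p = 0.00138) and Serpina7 from fed to 24 h in PC by -1.85 (edgeR adjusted p = 0.0169, the only member call that the block changed). Depth limits Serpina7 in PP, at 1 to 15 counts per library.

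Over all genes, the number called moved by more than 1.5 times in several comparisons. With only the groups compared it was 525 in place of 1212 for 24 h against 8 h in PC, 374 in place of 931 in PP, and 1195 in place of 1798 for 8 h against fed in PP. Without the 3 libraries with the highest Lcn2 it was 511 and 582 for 24 h against 8 h in PC and PP, and 1016 in place of 1727 for 8 h against fed in PC. Leaving out each library in turn, it ran from 539 (without 8 h PC library 1) to 1300 for 24 h against 8 h in PC, where 8 h PC library 2 (686), 24 h PC library 2 (723) and 24 h PC library 3 (562) also moved it this far. For 24 h against 8 h in PP it ran from 338 (without 24 h PP library 2) to 993, and 8 h PP library 2 (422), 8 h PP library 3 (588) and 24 h PP library 3 (560) moved it too. Without fed PP library 1 it was 1094 in place of 1798 for 8 h and 1523 in place of 2446 for 24 h against fed in PP. For the difference of the zones' changes it ran from 0 to 3 at 8 h and from 0 to 4 at 24 h. For that difference, DESeq2 called 38 genes at 24 h in place of 2 and 6 at 8 h in place of 0, none of them a member, and limma-voom called 0 at both. At 24 h the filter at a mean of 1 CPM gave 1, and the replicate block and leaving out the 3 libraries gave 0.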
